A study of Mus musculus with 16 samples.

Results

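Cyclosporine A was added to activated cells of the conventional mouse CD8 T cell clone, the clone that the labels call cyclosporine-sensitive, and its effect on RNA levels is described here across all genes. The arrays were chosen by title: 4 arrays of cells activated with anti-CD3 alone and 4 of cells activated with anti-CD3 and cyclosporine A, 8 of the 16 arrays of the series. All probe sets with 1 gene symbol were used, with 1 probe set per gene, which left 19938 genes. Both groups had been grown with a mixture of recombinant cytokines and were then activated on plate-bound anti-CD3 antibody, which engages the signalling chains of the T cell receptor, without further cytokines in the medium. The treated group also received cyclosporine A at 1 ug per ml. The other 8 arrays come from an unconventional CD8 clone, which the labels call cyclosporine-resistant, under the same 2 conditions, and they are used only where the clones are compared. The line is 1 clone of cells in culture, the labels used here give no strain, modified allele or length of activation, and unstimulated cells were not analysed here. The labels leave unsaid whether replicates came from separate cultures, so the p-values measure the spread between these arrays, which may be technical.

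Engagement of the T cell receptor raises calcium in the cytosol, and calcium switches on the phosphatase calcineurin. Calcineurin strips phosphates from NFAT proteins, which enter the nucleus and switch on cytokine, chemokine and receptor genes, often beside AP-1 and NF-kB factors. Cyclosporine A binds cyclophilins, above all cyclophilin A, and this complex blocks calcineurin, while the kinase branches of receptor signalling do not pass through calcineurin.

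Levels are log2 values, and a change is the level with cyclosporine A minus the level without it, so that 1 unit is a doubling. Errors of a level are SDs over 4 arrays, and errors of a change are standard errors (SE) of the fitted difference. A gene is called changed at a Benjamini-Hochberg adjusted p under 0.05 over all 19938 genes in limma. The array label was borne out by the genes: Cd8b1, a chain of the CD8 co-receptor, stood at 12.31 ± 0.06 (SD, n = 4) without the drug and 12.31 ± 0.03 (SD, n = 4) with it, and the other chain, Cd8a, at 12.50 ± 0.11 and 11.92 ± 0.10 (SD, n = 4). Cd4 lay at 4.28 ± 0.09 and 4.25 ± 0.03 (SD, n = 4). The median gene had a level of 5.48, and genes under that value are treated here as near background, where differences are compressed and a change is a lower estimate. Cells that make less of a transcript cannot be told apart from fewer cells making it, since each array holds RNA of a whole culture.

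The change reached a large part of the transcriptome but was small for most genes. Of all genes, 31.4% were called, 15.9% higher and 15.5% lower with cyclosporine A, while 5.06% changed at least 2-fold, 2.37% upward and 2.69% downward. The middle of the distribution was narrow, with quartiles of -0.12 and 0.15 around a median of 0.02, and its tails were longer downward, with a 1st percentile of -1.69 against a 99th percentile of 1.43. Falls were also deeper: 131 called genes fell at least 4-fold against 70 that rose as much, and 47 against 8 at 8-fold. Calls were rare among dim genes, at 4.27% of genes with levels up to 4.14 and 11.1% of those from 4.14 to 5.48, and common among bright ones, at 46.3% from 5.48 to 8.15 and 64.1% above. List counts given below are descriptions to be set against these shares.

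Most genes that moved at least 2-fold were not switched on or off on this scale. Of the 536 that fell, 370 were still above the median gene level under the drug, and of the 473 that rose, 397 were already above it without the drug. A drop from at least 2 units above that level to below it was seen for 33 genes, among them the cytokines Il24, Il1a, Il9 and Il23a, the chemokines Ccl9, Xcl1 and Cxcl3, the cyclins Ccne2 and Ccna2, and Ebf1, a transcription factor known from B cells. The opposite passage was made by 6 genes: Pfpl, Hsd11b1, Eya2, Jup, Dhrs9 and Pkd1l2.

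**Figure D1:**
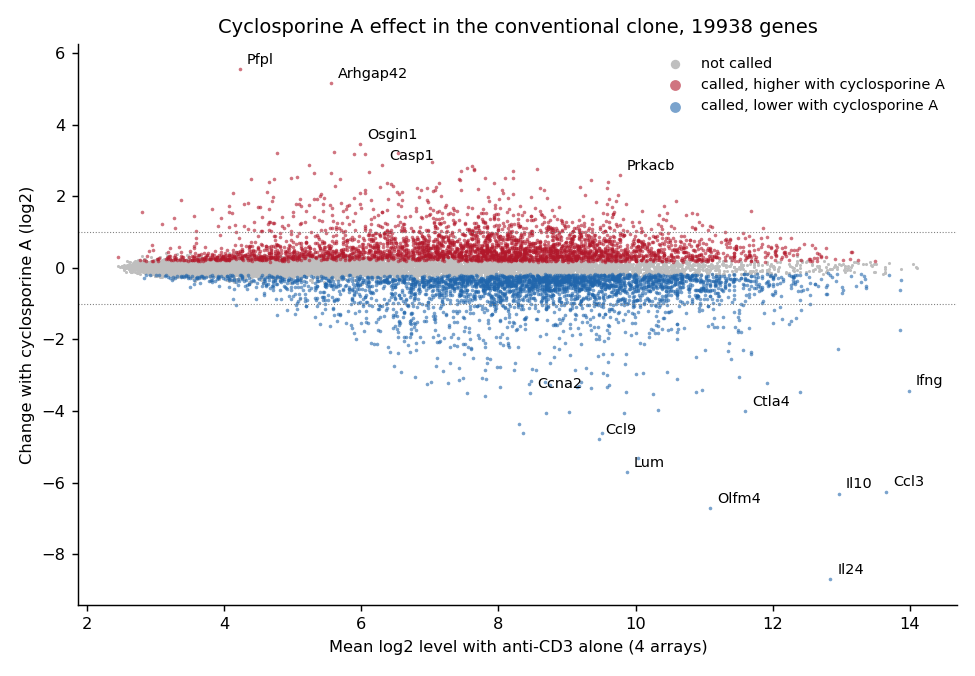
Change with cyclosporine A (log2, y axis) against the mean log2 level with anti-CD3 alone (x axis, 4 arrays) for 19938 genes of the conventional clone, with called genes in colour and dotted lines at a 2-fold change. The deepest falls start from high levels, such as Il24 at -8.70 from a level of 12.84, and the largest rises start from low ones, such as Pfpl at 5.54 from 4.23.

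Secreted T cell mediators were among the deepest falls. In the IL-10 family, whose members share a helical fold, 3 of 5 measured genes fell and none rose, with Il24 and Il10 (an anti-inflammatory cytokine) at the front. Il24 read 12.92, 12.82, 12.77 and 12.86 on the arrays without the drug and 4.02, 4.52, 4.07 and 3.95 with it, a change of -8.70 (SE 0.11, adjusted p = 1.1e-20). Il10 read 12.95, 12.89, 12.87 and 13.12 without and 6.43, 6.37, 6.38 and 7.40 with it (-6.31, SE 0.19, adjusted p = 2.8e-15). Neither gene's groups came near each other, Il24 ended near background on all 4 treated arrays, and the treated array of replicate 4 kept about 1 unit more Il10 than the others. Il19, a further member, was dim throughout, at 5.18 ± 0.11 and 4.34 ± 0.19 (SD, n = 4), and fell by 0.84 (SE 0.10, adjusted p = 7.6e-07). All 3 lie on chromosome 1, Il19 next to Il10, and Il24 next to Il20, which was at 4.21 and 4.05 and not called.

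Among 21 growth factor and type 1 cytokines, 9 fell, 4 of them at least 2-fold, and 3 rose, none by as much as 2-fold. Of these 21 genes, 13 were near background without the drug. Ifng, the interferon that activates macrophages, read 14.01, 13.99, 13.99 and 13.95 without the drug and 10.55, 10.69, 10.44 and 10.52 with it (-3.43, SE 0.11, adjusted p = 8.4e-15). Its treated arrays all stayed far above the median gene level. Il1a, an alarm cytokine, read 8.72, 8.44, 8.05 and 7.99 without and 4.00, 3.99, 4.03 and 3.72 with the drug (-4.37, SE 0.20, adjusted p = 1.1e-12), so that all 4 treated arrays were near background. Il2, the T cell growth factor, was low even without the drug, at 5.79, 5.40, 5.70 and 5.85, and read 4.17, 4.55, 4.50 and 4.36 with it (-1.29, SE 0.18, adjusted p = 6.1e-06). The groups of Il2 did not overlap, but 1 of its untreated arrays lay under the median gene level, where the array compresses differences. Osm, a cytokine of the IL-6 family, fell by 1.76 (SE 0.12, adjusted p = 3.4e-10) and Csf2, a myeloid growth factor, by 0.74 (SE 0.16, adjusted p = 0.0012). Csf2 was near background in both groups, at 5.09 ± 0.25 and 4.35 ± 0.19 (SD, n = 4). The 3 rises were Il16, Csf1 and Il18 at 0.73, 0.62 and 0.54, each from a level near or under 5. The T helper cytokines split: of 10 genes of the type 2 and IL-17 group, 4 fell, 2 of them at least 2-fold, and 0 rose. Without the drug, 7 of the 10 were near background. The 2 smaller falls, Il17f and Il33 at -0.33 each, were near background with overlapping arrays, and Il17f lost its call under several alternatives. Il9 read 8.17, 8.84, 8.77 and 8.15 without and 5.34, 5.16, 5.49 and 5.25 with the drug (-3.17, SE 0.14, adjusted p = 1.0e-12), and Il13 fell from 6.63 ± 0.60 to 5.39 ± 0.17 (SD, n = 4; -1.24, SE 0.19, adjusted p = 2.6e-05). Il4, Il5 and Il17a were near background in both groups, with changes of -0.07, -0.14 and -0.16 that were not called. Il23a, the p19 subunit of IL-23, fell from 8.02 ± 0.22 to 4.68 ± 0.35 (SD, n = 4; -3.34, SE 0.15, adjusted p = 1.0e-12).

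The chemokines, which steer other leukocytes, fell without a counterexample among the called genes: 13 of 26 measured ligands fell, 9 at least 2-fold, and 0 rose. Their median change was -0.21 beside 0.02 for all genes, and most of the 13 that were not called had levels under 5. Ccl3 read 13.78, 13.57, 13.62 and 13.63 without the drug and 7.51, 7.22, 7.20 and 7.65 with it (-6.25, SE 0.21, adjusted p = 1.4e-14). Ccl4, which lies next to Ccl3 on chromosome 11 and binds a shared receptor, read 12.57, 12.41, 12.54 and 12.69 without and 11.78, 11.51, 11.72 and 12.20 with it (-0.75, SE 0.19, adjusted p = 0.0041). Both fell with no overlap of the arrays, Ccl3 by about 6 units and Ccl4 by under 1. A like contrast held for Ccl9 and its neighbour Ccl5: Ccl9 read 9.64, 9.26, 9.30 and 9.64 without and 4.84, 4.55, 4.96 and 4.38 with the drug (-4.78, SE 0.14, adjusted p = 1.5e-15), and Ccl5 read 11.77, 11.36, 11.70 and 11.93 without and 9.25, 8.66, 9.39 and 10.06 with it (-2.35, SE 0.19, adjusted p = 3.4e-09). Xcl1, which attracts cross-presenting dendritic cells, fell from 9.51 ± 0.47 to 4.90 ± 0.31 (SD, n = 4; -4.61, SE 0.22, adjusted p = 2.7e-12). The neutrophil chemokines Cxcl3 and Cxcl2 fell by 3.25 (SE 0.16, adjusted p = 4.8e-12) and 1.94, whereas Cxcl1 stood at 6.5 with a change of -0.00 and was not called. Ccl12, Ccl1 and Ccl20 fell by 3.25, 2.20 and 2.05.

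Of 15 TNF superfamily ligands, 6 fell and 2 rose, and the 2 best known neighbours of the family moved by different amounts. Lta, lymphotoxin alpha, read 10.50, 10.32, 10.20 and 10.26 without the drug and 6.50, 6.23, 6.37 and 6.36 with it (-3.96, SE 0.13, adjusted p = 1.9e-14). Tnf read 11.44, 11.33, 11.46 and 11.38 without and 10.46, 10.43, 10.42 and 10.49 with it (-0.95, SE 0.10, adjusted p = 3.4e-07). Tnfsf4, the OX40 ligand, read 7.56, 7.68, 7.39 and 7.59 without and 4.03, 4.06, 4.05 and 4.14 with it (-3.49, SE 0.10, adjusted p = 1.3e-15). Lta and Tnfsf4 thus fell more than 8-fold, while Tnf kept a high level under the drug and its groups were still separate. Fasl, the death ligand of killer cells, fell by 0.69 (SE 0.10, adjusted p = 7.8e-06). The 2 rises were Tnfsf10, the ligand TRAIL, at 1.63, and Tnfsf13b, the B cell factor BAFF, which went from 8.12 ± 0.03 to 9.45 ± 0.07 (SD, n = 4; 1.32, SE 0.08, adjusted p = 6.3e-11).

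**Figure D2:**
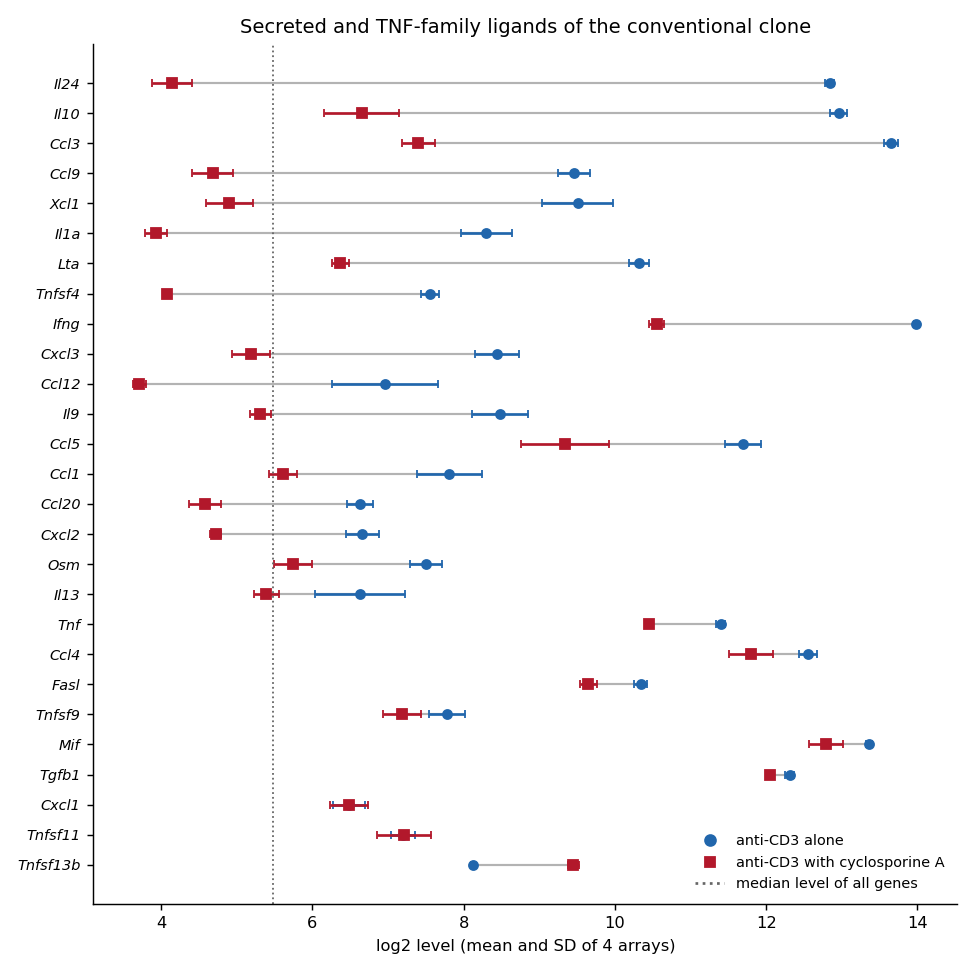
Log2 levels (x axis, mean and SD of 4 arrays) of secreted and TNF-family ligands whose untreated level was at least 1 above that of the median gene, for conventional cells given anti-CD3 alone (circles) or anti-CD3 and cyclosporine A (squares), with the dotted line at the median level of all genes. Il24, Ccl9, Xcl1, Il1a and Tnfsf4 cross the line with the drug, Ifng, Tnf and Ccl4 stay far above it, and Tnfsf13b moves the other way.

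Promoters of 3 of these ligands are shown because the T cell ligands are the classic NFAT targets. The sequences are the 250 bases before the RefSeq start of each gene in GRCm38.p6, written 5′ to 3′ along the gene, with the NFAT core GGAAA, or its reverse complement TTTCC, in capitals.
Il2 (chr3:37125955-37126204, minus strand): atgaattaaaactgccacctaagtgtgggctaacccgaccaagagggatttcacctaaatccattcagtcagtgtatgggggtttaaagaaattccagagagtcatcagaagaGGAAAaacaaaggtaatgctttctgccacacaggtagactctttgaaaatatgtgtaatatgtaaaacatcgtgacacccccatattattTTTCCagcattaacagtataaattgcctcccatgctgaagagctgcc
Ccl3 (chr11:83649379-83649628, minus strand): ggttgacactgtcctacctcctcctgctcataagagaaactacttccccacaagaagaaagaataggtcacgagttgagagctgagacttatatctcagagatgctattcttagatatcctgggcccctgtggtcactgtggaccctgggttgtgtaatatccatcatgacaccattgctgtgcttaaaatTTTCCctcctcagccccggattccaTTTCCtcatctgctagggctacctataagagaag
Ifng (chr10:118440796-118441045, plus strand): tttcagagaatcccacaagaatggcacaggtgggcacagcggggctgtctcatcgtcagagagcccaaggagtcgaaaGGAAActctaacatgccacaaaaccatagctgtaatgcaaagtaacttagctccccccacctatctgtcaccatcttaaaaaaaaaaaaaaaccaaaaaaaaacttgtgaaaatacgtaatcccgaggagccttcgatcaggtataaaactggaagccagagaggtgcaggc
The core is short and common. A window of 250 bases before to 50 after the start held it, on either strand, in 60% of 19116 promoters of 15563 measured genes, in 86.5% of 37 promoters of 29 genes of the 3 cytokine lists and in 68.4% of 19 promoters of 18 chemokine genes. At least 2 cores were found in 25.6%, 48.6% and 57.9% of them. The AP-1 motif TGANTCA was in 6.88% of all promoters, 21.6% of cytokine and 15.8% of chemokine promoters, and the NF-kB motif (GGG and TTTCC with 2 bases between them, so that it contains an NFAT core on its other strand) in 1.57%, 16.2% and 26.3%. A match is a description of the letters and not evidence of binding.

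Receptors for these mediators moved in both directions. Of 24 chemokine and related receptors, 7 rose, 4 of them at least 2-fold, and 4 fell, 3 at least 2-fold, beside 15.9% higher and 15.5% lower among all genes, so that the falls were about as frequent as elsewhere. Ccr4, a receptor of skin-homing T cells, read 11.90, 11.91, 11.94 and 11.89 without the drug and 8.57, 8.77, 8.79 and 8.64 with it (-3.22, SE 0.08, adjusted p = 3.3e-16). Ccr7, the lymph node homing receptor, fell from 10.61 ± 0.23 to 7.51 ± 0.22 (SD, n = 4; -3.10, SE 0.14, adjusted p = 8.1e-13). Cxcr3, a receptor of effector T cells that answers to interferon-induced chemokines, read 8.21, 8.10, 7.93 and 8.02 without and 10.09, 10.34, 10.21 and 10.03 with the drug (2.10, SE 0.11, adjusted p = 1.1e-11). Homing receptors therefore moved both ways. Without overlap of any array, Ccr4, Ccr7 and Gpr183 (-2.0) were lower and Cxcr3, Ccr2 (1.71), S1pr4 (1.61) and Cxcr6 (1.29) higher. Of 33 cytokine receptor chains, 11 fell and 5 rose, the rises near the 15.9% of all genes. Falls of at least 2-fold were seen for Il12rb2, Il6st, Il10ra, Il4ra, Tgfbr3 and Tgfbr1, from -1.75 for Il12rb2 (SE 0.13, adjusted p = 1.6e-09) to -1.12 for Tgfbr1, while Tgfbr2, the partner of Tgfbr1, rose by 1.33 (SE 0.08, adjusted p = 4.4e-11). Il2ra, the high-affinity chain for IL-2, fell by 0.53 (SE 0.08, adjusted p = 1.6e-05), and Il7r, the survival receptor of resting T cells, rose by 0.74 (SE 0.07, adjusted p = 5.9e-08). Of 20 TNF receptor family genes, 4 fell and 0 rose, led by the decoy receptor Tnfrsf11b at -2.07, a share of falls near the 15.5% of all genes, and the smallest of the 4, Tnfrsf1b at -0.20, lost its call under most alternatives.

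Checkpoint receptors also split. Ctla4, which competes with Cd28 for the B7 ligands, read 11.92, 10.77, 11.42 and 12.27 without the drug and 7.96, 6.97, 7.34 and 8.07 with it (-4.01, SE 0.26, adjusted p = 2.4e-10). Cd28 itself, the main co-stimulatory receptor, read 10.63, 9.95, 10.15 and 10.90 without and 12.06, 12.10, 12.16 and 12.24 with it (1.73, SE 0.16, adjusted p = 2.5e-08). The 2 receptors of the same ligands thus moved in opposite directions. For both, the untreated arrays were spread wider than usual, with replicates 1 and 4 above replicates 2 and 3. The treated arrays of Ctla4 were ranked the same way. Tigit, an inhibitory receptor for nectin-like ligands, fell from 11.39 ± 0.07 to 8.84 ± 0.14 (SD, n = 4; -2.56, SE 0.08, adjusted p = 2.4e-15). Vsir, the checkpoint VISTA, read 8.49, 7.87, 8.08 and 8.40 without and 10.88, 10.96, 10.87 and 10.97 with the drug (2.71, SE 0.13, adjusted p = 1.7e-12). Klrg1, a marker of terminal effector cells, rose by 1.86 (SE 0.14, adjusted p = 1.7e-09), Pdcd1 by 0.88 (SE 0.13, adjusted p = 1.2e-05) and Havcr2 by 0.67 (SE 0.07, adjusted p = 1.8e-07). In all, 4 of 19 inhibitory receptors rose and 5 fell, beside 15.9% higher and 15.5% lower among all genes. Among 25 co-stimulatory receptors and activation markers, 11 fell and 2 rose, with Icos at -1.39, Cd69 at -1.07 and Crtam at -1.04 the only falls of at least 2-fold. Of 22 NK cell receptors and adaptors, 18 were not called, while the activating receptor Klrk1 fell by 1.73 (SE 0.13, adjusted p = 1.5e-09) and Klrd1, the CD94 chain, rose by 1.87 (SE 0.14, adjusted p = 1.8e-09).

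**Figure D3:**
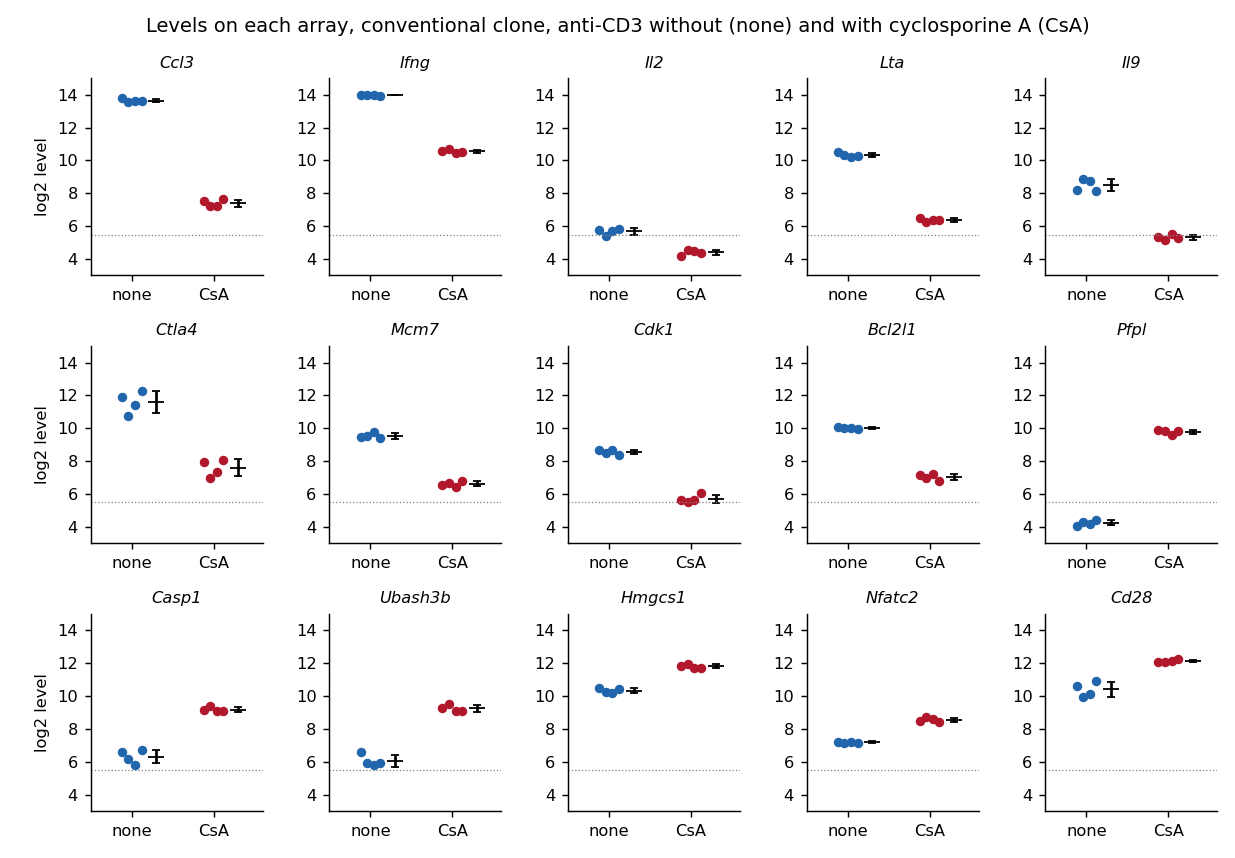
Log2 level on each of 8 arrays (points; y axis) for 15 genes of the conventional clone with anti-CD3 alone (none) and with cyclosporine A (CsA), with the mean and SD beside each group and a dotted line at the median gene level of 5.48. No gene shown has overlapping groups, and Ctla4, Casp1 and Cd28 have the wider untreated groups.

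Genes of the receptor's own signalling machinery mostly rose. Of 40 proximal signalling genes, 23 rose, 11 of them at least 2-fold, and 7 fell, with a median change of 0.37. Ubash3b, a phosphatase that dampens the receptor, read 6.61, 5.89, 5.81 and 5.93 without the drug and 9.30, 9.51, 9.10 and 9.06 with it (3.18, SE 0.14, adjusted p = 6.9e-13). Fyn, a Src family kinase, read 7.97, 8.05, 7.93 and 7.85 without and 9.61, 9.95, 9.60 and 9.68 with it (1.76, SE 0.08, adjusted p = 2.7e-12). Prkcq, protein kinase C theta, read 7.84, 7.35, 7.22 and 7.30 without and 4.47, 4.67, 4.75 and 4.62 with it (-2.80, SE 0.11, adjusted p = 8.4e-14). The groups of all 3 genes were fully separate, and Prkcq ended under the median gene level. Inhibitory adaptors rose together with activating parts: Sit1 by 2.24, Lax1 by 1.79 and Pag1 by 1.52 on the inhibitory side, and the adaptor Grap2 by 2.24 (SE 0.14, adjusted p = 1.7e-10), Skap1 by 1.43, the kinase Zap70 by 1.07 (SE 0.08, adjusted p = 1.3e-09) and the RAS activator Rasgrp1 by 1.06 on the activating side. The CD3 chains Cd3d, Cd3e and Cd3g rose by 0.22, 0.37 and 0.45.

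Genes of the drug's own pathway moved by under 2-fold in most cases. Ppia, which encodes cyclophilin A, read 13.66, 13.65, 13.58 and 13.66 without the drug and 13.58, 13.68, 13.58 and 13.61 with it (-0.03, SE 0.06, adjusted p = 0.79), and 6 other Ppia probe sets changed by -0.05 to 0.03. Of 29 genes for calcineurin, NFAT, their regulators and cyclophilins, 11 fell, none by as much as 2-fold, and 5 rose, 2 of them at least 2-fold. Nfatc2, an NFAT member present in resting T cells, read 7.23, 7.14, 7.22 and 7.12 without and 8.47, 8.70, 8.62 and 8.42 with the drug (1.38, SE 0.10, adjusted p = 2.1e-09). Ppp3ca, a catalytic calcineurin subunit, rose from 8.41 ± 0.14 to 9.51 ± 0.12 (SD, n = 4; 1.10, SE 0.09, adjusted p = 5.8e-09), whereas Ppp3cb and the regulatory subunit Ppp3r1 changed by 0.15 (SE 0.07, adjusted p = 0.14) and 0.06 (SE 0.08, adjusted p = 0.66). Rcan1, a calcineurin regulator with an isoform known as an NFAT target, read 6.29, 6.09, 6.2 and 6.36 without and 6.19, 5.90, 6.38 and 5.96 with the drug (-0.13, SE 0.10, adjusted p = 0.39), and its groups overlapped. Nfatc1, which also has an NFAT-driven isoform, fell by 0.36 (SE 0.08, adjusted p = 0.0014). A probe set that covers several isoforms does not separate them. Among 24 channels and pumps, 7 fell and 6 rose, beside 15.5% lower and 15.9% higher among all genes. The potassium channel Kcna3, which keeps the membrane potential that drives calcium entry, read 9.26, 9.32, 9.33 and 9.49 without and 6.57, 6.11, 6.53 and 6.42 with the drug (-2.94, SE 0.10, adjusted p = 9.2e-15), while the calcium pump Atp2a3, the release channel Itpr3 and the entry channel subunit Orai2 rose by 1.66, 1.65 and 1.26.

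Transcription factor genes downstream of the receptor did not follow 1 pattern. Among 19 AP-1 genes and cofactors, 7 fell and 4 rose, beside 15.5% lower and 15.9% higher among all genes. Batf3 read 10.95, 11.01, 11.04 and 10.90 without the drug and 7.83, 7.40, 7.55 and 7.45 with it (-3.42, SE 0.09, adjusted p = 7.3e-16), and Atf3 fell from 10.11 ± 0.10 to 7.17 ± 0.13 (SD, n = 4; -2.94, SE 0.11, adjusted p = 5.8e-14). Junb fell by 1.17 (SE 0.10, adjusted p = 2.1e-08), Fosb rose by 1.73 (SE 0.09, adjusted p = 4.8e-12), and Batf, with a change of 0.05, was not called. The calcineurin-linked EGR and NR4A genes varied: Nr4a3 fell by 1.51 (SE 0.11, adjusted p = 2.1e-09) and Nr4a1 by 0.55 (SE 0.08, adjusted p = 8.7e-06), while Nr4a2, Egr2 and Egr3 had changes of -0.04, 0.12 and 0.04 and were not called. The Ikaros family gene Ikzf4 fell by 2.79 (SE 0.10, adjusted p = 3.8e-14). Feedback genes of the MAP kinase pathway, a branch that does not need calcineurin, rose in 7 of 19 cases and fell in 4. Without the drug, 4 of the 19 AP-1 genes and 3 of these 19 feedback genes lay under the median gene level. Calls were common among all bright genes, at 46.3% from 5.48 to 8.15 and 64.1% above, so neither count is read as a result about its list. The phosphatases Dusp1 and Dusp6 rose by 2.01 (SE 0.12, adjusted p = 9.1e-11) and 1.17, and Spry2 by 1.37. Myc and Ier5, counted on the same list, fell by 1.17 and 1.07. Of 22 NF-kB subunits and feedback genes, 14 fell and 3 rose, with a median of -0.47. The inhibitors Tnip3, Tnfaip3 and Nfkbia fell by 1.81, 1.37 and 1.04, and Nfkbiz rose by 1.66 (SE 0.10, adjusted p = 1.2e-10).

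Genes in the path from cytokine receptors to STAT factors fell more often than they rose. Of 20 SOCS, CISH, PIM, JAK and STAT genes, 10 fell, 7 of them at least 2-fold, and 2 rose by less. Socs3, an inhibitor of JAK signalling, read 9.37, 9.18, 9.43 and 8.81 without the drug and 6.22, 5.97, 5.89 and 6.01 with it (-3.18, SE 0.13, adjusted p = 3.4e-13). A dimmer second probe set of Socs3, with a mean level of 5.77, changed by -0.70 (adjusted p = 1.3e-05), so direction held and size did not. Stat5a fell by 1.87 (SE 0.10, adjusted p = 7.0e-12), the kinase gene Pim1 by 1.68, Socs1 by 1.43, Jak2 by 1.28 and Cish by 1.24. Among 34 effector and memory transcription factors, 12 rose and 10 fell. Satb1, a genome organiser, fell by 2.41 (SE 0.07, adjusted p = 1.3e-15), Etv6 by 2.20 and Lef1, a factor of naive and memory cells, by 1.61. Bcl6, a repressor linked to memory and follicular fates, read 5.48, 5.75, 5.64 and 5.62 without and 7.55, 8.24, 7.66 and 8.19 with the drug (2.29, SE 0.13, adjusted p = 4.4e-11). Tbx21 and Prdm1, which drive the effector fate, fell by 0.69 and 0.52, and Eomes was near background at 4.46 and 4.23 and was not called. In the list of quiescence and homing genes 13 of 23 rose and 4 fell, with Ypel3, Txnip, Sesn3, Ddit4 and Ccng2 higher by 1.07 to 1.29, although the homing receptor Ccr7 and the quiescence gene Slfn2 (-1.65) fell.

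Cell division genes fell almost as a block. Of 41 DNA replication genes, 38 fell, 27 at least 2-fold, and 2 rose, with a median change of -1.47. Of 56 genes of mitosis, spindle and kinetochore, 53 fell, 43 at least 2-fold, and 0 rose, with a median of -1.62. Mcm7, a subunit of the replicative helicase, read 9.44, 9.53, 9.75 and 9.40 without the drug and 6.55, 6.68, 6.43 and 6.77 with it (-2.93, SE 0.10, adjusted p = 1.2e-14). Cdk1, the mitotic kinase, read 8.65, 8.52, 8.68 and 8.36 without and 5.61, 5.51, 5.61 and 6.08 with it (-2.85, SE 0.12, adjusted p = 2.7e-13). Ccna2, the cyclin of S phase, read 8.52, 8.53, 8.56 and 8.25 without and 5.30, 4.81, 4.48 and 5.24 with it (-3.51, SE 0.16, adjusted p = 1.0e-12). Every treated array of these 3 genes lay at least 2 units below every untreated array. Helicase subunits were not lowered equally: Mcm3, Mcm4, Mcm5, Mcm2 and Mcm6 fell by 2.30, 1.98, 1.65, 1.47 and 1.25. Pcna, the sliding clamp, fell by 0.57 (SE 0.07, adjusted p = 6.2e-07), its partner Pclaf by 3.46 (SE 0.12, adjusted p = 1.5e-14), and the primase subunits Prim1 and Prim2 moved in opposite directions, by -1.95 and 1.08. Uhrf1, which guides maintenance DNA methylation, fell by 3.33 (SE 0.10, adjusted p = 1.9e-15). In mitosis the checkpoint kinases Ttk and Bub1 fell by 3.13 and 2.75 and the kinetochore gene Nuf2 by 3.07, and Mki67, the common proliferation marker, fell by 1.16 (SE 0.17, adjusted p = 1.7e-05). The genes of this list that were not called were Kif15, Cenpp and Incenp.

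Regulators upstream of division were graded. Of 37 cyclins, CDKs, inhibitors and E2F genes, 24 fell and 5 rose. Ccne2 fell by 3.57 (SE 0.17, adjusted p = 1.6e-12), E2f1 by 1.22, Cdk4 by 0.79 and the early cyclin Ccnd2 by 0.70 (SE 0.06, adjusted p = 8.7e-09), while Ccnd3 stayed at 7.86 and 7.85. The CDK inhibitor Cdkn1b, p27, read 8.0, 7.82, 7.72 and 8.05 without and 8.71, 8.97, 8.75 and 9.06 with the drug (0.98, SE 0.10, adjusted p = 1.5e-07). Supply genes fell as well: 19 of 21 for nucleotide synthesis, led by Shmt1 at -2.41 and Rrm1 at -1.62, and 31 of 32 for ribosome biogenesis, led by Noc4l at -1.70. The ribosome group fell broadly but by little, with 3 genes past 2-fold and a median of -0.57. Myc, which drives many of them, read 12.36, 12.50, 12.39 and 12.40 without and 11.20, 11.29, 11.23 and 11.24 with the drug (-1.17, SE 0.06, adjusted p = 8.6e-12), and its groups lay more than 0.9 apart.

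Promoters of a replication and a mitosis gene are shown because E2F and CHR elements are known from such genes. In Mcm7 the capitals mark GCGGGAAA, the reverse complement of the E2F motif TTTCCCGC, and in Cdk1 they mark the cell cycle homology region, CHR, with the letters TTTGAA. The Cdk1 sequence also holds the E2F motif TTTCGCGC, left in lower case.
Mcm7 (chr5:138171884-138172133, minus strand): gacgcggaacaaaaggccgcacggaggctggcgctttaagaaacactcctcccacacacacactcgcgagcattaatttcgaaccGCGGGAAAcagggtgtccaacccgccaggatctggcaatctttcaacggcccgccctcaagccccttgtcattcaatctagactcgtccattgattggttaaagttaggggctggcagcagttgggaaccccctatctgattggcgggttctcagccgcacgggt
Cdk1 (chr10:69352913-69353162, minus strand): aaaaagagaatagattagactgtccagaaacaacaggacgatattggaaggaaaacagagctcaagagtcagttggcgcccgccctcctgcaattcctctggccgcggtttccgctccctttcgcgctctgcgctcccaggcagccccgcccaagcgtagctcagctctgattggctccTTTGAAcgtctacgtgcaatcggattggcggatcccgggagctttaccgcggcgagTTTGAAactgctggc
The sequences are RefSeq's for GRCm38.p6, and each is 250 bases before a start, for Mcm7 the first of 2 listed starts, of which the other had no E2F match. Any of 3 E2F motifs (TTTGGCGC, TTTCGCGC or TTTCCCGC, of which the last contains an NFAT core) was in 2.58% of all promoters, 41.5% of 41 promoters of 33 replication genes and 7.55% of 53 promoters of 49 mitosis genes. The CHR letters were in 14.8% of all, 14.6% of replication and 69.8% of mitosis promoters. Both strands were searched.

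Lipid genes went up as division genes went down. Of 21 sterol synthesis and uptake genes, 16 rose, 6 at least 2-fold, and 2 fell, with a median of 0.79. Hmgcs1, which makes HMG-CoA, read 10.52, 10.24, 10.18 and 10.41 without the drug and 11.84, 11.98, 11.74 and 11.69 with it (1.48, SE 0.10, adjusted p = 2.7e-10). Insig1, a feedback sensor of sterols, rose by 0.91 (SE 0.10, adjusted p = 3.2e-07) and Sqle, a rate-setting enzyme, by 0.37 (SE 0.09, adjusted p = 0.0019), while Stard4, a sterol carrier, fell by 0.80. Of 31 genes of fatty acid synthesis and use, 17 rose and 2 fell. Acss2, which makes acetyl-CoA from acetate, read 5.73, 5.39, 5.67 and 5.62 without and 8.87, 8.66, 8.75 and 9.02 with it (3.23, SE 0.12, adjusted p = 8.1e-14). Slc27a1, a fatty acid transporter, read 6.52, 6.53, 6.61 and 6.48 without and 9.78, 10.17, 9.75 and 9.35 with it (3.22, SE 0.12, adjusted p = 5.8e-14). Lpin1, a phosphatidate phosphatase, rose by 2.48 (SE 0.16, adjusted p = 2.4e-10). The oxidation genes Cpt1a and Hadha rose by 0.78 and 0.76, and the synthesis gene Fasn fell by 0.54. The promoter of Hmgcs1 is shown, with a sterol regulatory element of the form TCACNCCAC in capitals.
Hmgcs1 (chr13:119690101-119690350, plus strand): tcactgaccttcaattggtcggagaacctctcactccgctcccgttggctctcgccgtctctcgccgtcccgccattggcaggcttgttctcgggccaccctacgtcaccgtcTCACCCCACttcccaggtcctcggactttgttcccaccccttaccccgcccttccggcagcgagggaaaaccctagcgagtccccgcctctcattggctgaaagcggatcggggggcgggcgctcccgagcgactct
That form was in 1.18% of all promoters and in 1 of 21 promoters of 17 sterol genes (4.76%), which is the promoter shown. The CCAAT box was in 37.4% of all and 76.2% of sterol promoters.

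**Figure D4:**
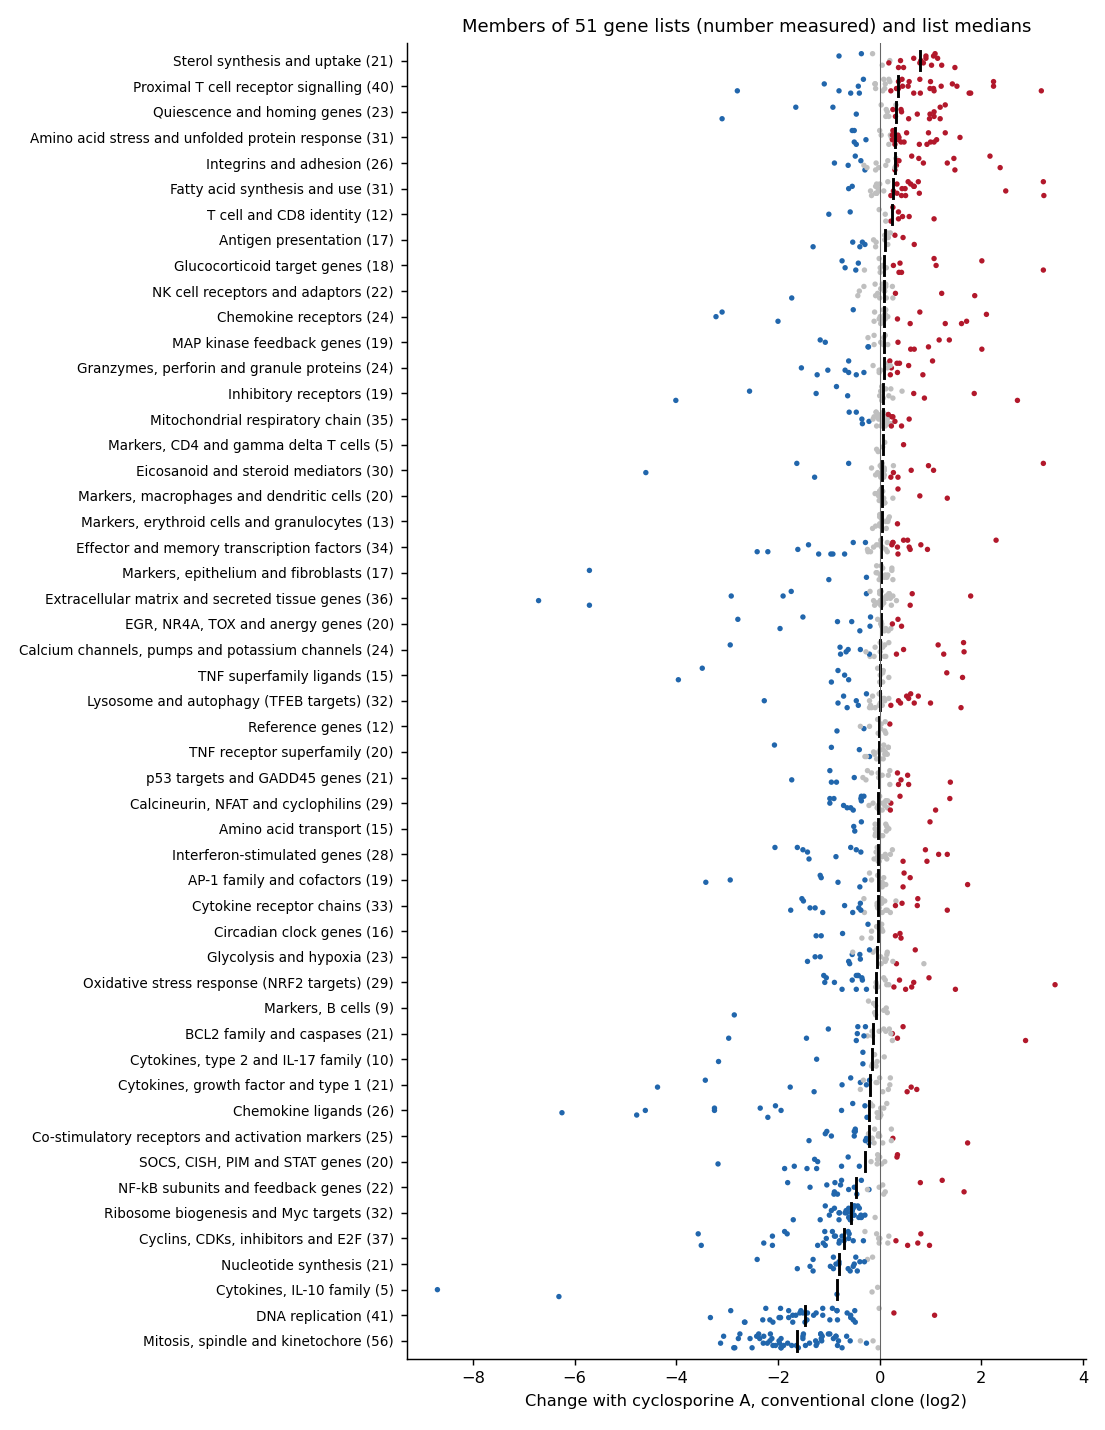
Change with cyclosporine A (log2, x axis) of the measured members of 51 gene lists in the conventional clone, sorted by list median (black bar), with called rises in red, called falls in blue and other genes in grey. The division lists lie left of 0, with medians of -1.62 and -1.47, sterol synthesis lies right at 0.79, and most other lists hold both colours.

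Other metabolic groups moved by less. Hif1a, the hypoxia factor, read 12.17, 12.08, 12.14 and 12.16 without the drug and 10.66, 10.70, 10.68 and 10.81 with it (-1.42, SE 0.07, adjusted p = 1.5e-12), and Hk2, the inducible hexokinase, fell by 1.27 (SE 0.13, adjusted p = 1.3e-07). In the glycolysis and hypoxia list as a whole, 9 of 23 fell and 2 rose, with a median of -0.06, and Slc2a1, Pgk1 and Aldoa were among the 12 not called. Of 31 genes of amino acid stress and the unfolded protein response, 21 rose and 5 fell. Trib3, a pseudokinase induced by stress, read 7.41, 7.07, 7.23 and 7.83 without and 9.24, 8.89, 8.85 and 8.89 with the drug (1.58, SE 0.16, adjusted p = 1.5e-07), and Ddit3, the stress factor CHOP, rose by 1.12 (SE 0.09, adjusted p = 7.9e-09). Asns, a classic target of Atf4, had a change of 0.03 (SE 0.07, adjusted p = 0.84), and the chaperone Hspa5 rose by 0.25 (SE 0.06, adjusted p = 0.0017). Among 29 NRF2 targets 13 fell and 8 rose, although Osgin1, an oxidative stress gene, read 5.89, 5.85, 6.09 and 6.13 without and 9.52, 9.47, 9.32 and 9.47 with the drug (3.45, SE 0.09, adjusted p = 7.6e-16). Srxn1, which repairs peroxiredoxins, rose by 1.49 (SE 0.08, adjusted p = 1.2e-11) and Gclm, for glutathione synthesis, fell by 1.05 (SE 0.17, adjusted p = 6.6e-05), so the targets did not move as a unit. Lysosomal proteases split in the same way, as Ctsd rose by 1.6 (SE 0.07, adjusted p = 1.1e-12) and Ctsz fell by 2.27 (SE 0.07, adjusted p = 3.4e-15). Of 35 respiratory chain genes 7 rose and 5 fell, and 23 were not called. None of them lay under the median gene level without the drug. Among all genes, 46.3% of those with levels from 5.48 to 8.15 were called, and 64.1% of brighter ones.

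The killing machinery stayed at high levels. Of 24 granule genes, 9 rose and 8 fell, and the median change was 0.08. Only 1 of them lay under the median gene level without the drug. Calls were common among all bright genes, at 46.3% from 5.48 to 8.15 and 64.1% above. Gzmb, granzyme B, read 13.87, 13.83, 13.83 and 13.87 without the drug and 13.30, 13.08, 13.20 and 13.38 with it (-0.61, SE 0.07, adjusted p = 2.9e-07). Prf1, perforin, read 13.27, 13.21, 13.12 and 13.16 without and 13.39, 13.37, 13.29 and 13.31 with it (0.15, SE 0.08, adjusted p = 0.2). Gzmb fell with separate groups, while Prf1 was not called although its arrays did not overlap either. Gzmk rose by 0.85 (SE 0.11, adjusted p = 2.1e-06) and Unc13d, which primes granule release, by 1.04 (SE 0.07, adjusted p = 5.3e-10). The release gene Stx11 fell by 1.23 (SE 0.06, adjusted p = 8.6e-12), and the granzyme inhibitors Serpinb6b and Serpinb9 fell by 1.54 and 1.02. In the death list, Bcl2l1, the survival gene Bcl-xL, read 10.09, 9.99, 10.01 and 9.94 without and 7.17, 6.95, 7.20 and 6.81 with the drug (-2.97, SE 0.10, adjusted p = 1.5e-14), while Mcl1 changed by -0.14 (SE 0.07, adjusted p = 0.14). Casp1, the inflammasome caspase, read 6.59, 6.14, 5.80 and 6.70 without and 9.13, 9.40, 9.08 and 9.11 with it (2.87, SE 0.16, adjusted p = 1.6e-11). Its relative Casp4 fell by 1.44 (SE 0.13, adjusted p = 2.3e-08), so these 2 inflammatory caspases moved apart. Among integrins and adhesion genes 12 of 26 rose and 5 fell, with the collagen receptor chains Itga2 and Itga1 higher by 2.37 (SE 0.11, adjusted p = 2.0e-12) and 1.48 and Itgb3 by 2.17. Of 28 interferon-stimulated genes, 9 fell and 5 rose, beside 15.5% lower and 15.9% higher among all genes. Gbp5, Irf7 and Irf1 fell by 2.06, 1.51 and 1.42, although a second, dim probe set of Irf1 changed by -0.17 (adjusted p = 0.27). Ddx58 and Mx1 rose by 1.33 and 1.16.

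Several of the largest changes were seen in genes of other kinds. Pfpl, a perforin-like gene, read 4.07, 4.29, 4.17 and 4.41 without the drug and 9.87, 9.81, 9.59 and 9.84 with it (5.54, SE 0.11, adjusted p = 1.0e-17). Hsd11b1, which regenerates active glucocorticoid, read 5.03, 4.71, 4.58 and 4.81 without and 7.89, 8.33, 7.96 and 7.82 with it (3.22, SE 0.11, adjusted p = 1.2e-14). Both were near background on every untreated array and clearly present on every treated array. Among glucocorticoid target genes 8 of 18 rose and 4 fell, and the standard reporters Tsc22d3 and Fkbp5 had changes of 0.13 (SE 0.13, adjusted p = 0.52) and 0.27 (SE 0.07, adjusted p = 0.0052). Among signalling genes Pik3ap1, an adaptor for PI3 kinase, rose by 2.79 (SE 0.10, adjusted p = 1.9e-14), Dok2, an adaptor that restrains RAS, by 2.76 and Prkacb, a catalytic subunit of protein kinase A, by 2.59 (SE 0.07, adjusted p = 3.3e-16). On the falling side Olfm4, a secreted olfactomedin protein, fell from 11.08 ± 0.08 (SD, n = 4) to 4.47, 4.06, 4.36 and 4.57 on the treated arrays (-6.71, SE 0.12, adjusted p = 1.3e-18). Lum, a proteoglycan of connective tissue, read 10.24, 9.86, 9.65 and 9.72 without and 4.42, 4.43, 3.88 and 3.89 with it (-5.71, SE 0.15, adjusted p = 5.4e-16). Akr1c18, which inactivates progesterone, read 8.69, 8.31, 8.27 and 8.17 without and 3.80, 3.93, 3.56 and 3.78 with it (-4.60, SE 0.23, adjusted p = 5.9e-12). All 3 were well expressed on each untreated array and near background on each treated array. Igf1, Inhba and the enkephalin precursor Penk fell by 2.92, 1.90 and 1.74.

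Markers of other cell types were read beside these changes, and their part in them was not tested. Of 17 epithelial and fibroblast markers 3 fell and 0 rose, and their mean level ran from 5.67 to 5.74 without and from 5.24 to 5.46 with the drug. The 3 were Lum, Thy1 (which T cells also express, -1.0) and Col1a2 (-0.26, from 6.15 to 5.89). The collagen gene Col1a1 stood at 6.42 and 6.68 and was not called, while the fibroblast genes Dcn and Pdgfra and the epithelial gene Epcam had levels of 4.0, 4.1 and 4.3 without the drug. Of 9 B cell markers only Ebf1 was called, at -2.86 (SE 0.10, adjusted p = 3.9e-14), and the mean of the list was 4.44 to 4.50 without and 4.02 to 4.20 with the drug, with Cd79a and Ms4a1 at 3.5 and 3.2. Among the macrophage and dendritic cell markers, 3 of 20 rose, near the 15.9% of all genes: Itgax by 1.33, Cd68 by 0.79 and C1qa by 0.36, and the mean ran from 4.48 to 4.54 without and 4.63 to 4.73 with the drug, while Csf1r and Adgre1 were at 4.2 and 3.7. Of 13 erythroid and granulocyte markers 1 rose, Epor by 0.35, and of 5 markers of CD4 and gamma delta T cells 1 rose, Zbtb7b by 0.47. Among all genes 15.9% rose, and Epor, like Col1a2, lost its call under several alternatives. Most markers on these lists were near background. Without the drug, 11 of the 17 epithelial and fibroblast markers lay under the median gene level. Markers above that level in both groups included Thy1, Col1a1, Col1a2, Cd68, Itgax, Zbtb7b and Sox13, and not all such markers are named here.

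Neighbours of changed genes were counted as a description. They were not matched for level, and adjacent genes that both changed were counted from both sides. Of 1071 neighbours of genes that fell at least 2-fold, 24.5% fell and 5.79% fell at least 2-fold, beside 15.5% and 2.69% of all genes. Of 943 neighbours of genes that rose at least 2-fold, 29.2% rose and 7.42% rose at least 2-fold, beside 15.9% and 2.37%. Lum has Dcn and Kera at its sides, with changes of -0.07 and 0.17 that were not called, and Pfpl has Olfr1441 and Mpeg1, at 0.02 and -0.07. Il1a lies beside Il1b (0.20, adjusted p = 0.25) and Ckap2l, a spindle gene, which fell by 1.69. Akr1c18 fell while its neighbour and relative Akr1c13 rose by 0.80 (SE 0.09, adjusted p = 6.7e-07), and Ubash3b rose beside Crtam, which fell. Genes with several probe sets gave a check on single values: of 65 other probe sets of genes that moved at least 2-fold, 60 had the same sign and 53 were called in the same direction, and none was called in the opposite one. The check did not bear out Arhgap42, which rose by 5.15 on the probe set used. Its other probe set, near background at a mean level of 3.61, changed by -0.02 (adjusted p = 0.92).

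The same contrast in the unconventional clone shows where the conventional clone differs. The difference of the effects was called for 16.3% of all genes. The 25 largest falls and 25 largest rises in the conventional clone were picked for their size there, so their counts in the other clone are a description. Of the falls, 23 were called lower there as well, and the difference was called for 22, with the smaller fall in the unconventional clone for 19 of them. Of the rises, 19 were also called higher there, and the difference was called for 23, all smaller in the unconventional clone. In the unconventional clone without the drug, 3 of the falling and 8 of the rising genes were already near background.

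The size of the fall in each clone varied between ligands. Il24 changed by -9.05 in the unconventional clone (difference -0.34, SE 0.16, adjusted p = 0.18) and Xcl1 by -5.18 (difference -0.57, SE 0.31, adjusted p = 0.28). Both genes ended near background in both clones, so their falls are lower estimates and a difference between them cannot be read. Ifng fell by 3.43 in the conventional and 5.28 in the unconventional clone (difference -1.85, SE 0.16, adjusted p = 5.9e-08), and Ccl4 by 0.75 and 3.14 (difference -2.38, SE 0.27, adjusted p = 2.4e-06), so for these 2 the fall was smaller in the clone labelled sensitive. Ccl5 fell by 2.35 in the conventional clone and changed by 0.36 in the other (difference 2.71, SE 0.26, adjusted p = 3.1e-07), and Il10 fell less in the other clone (difference 1.84, SE 0.27, adjusted p = 4.6e-05). Tnfsf4 and Ccl9 were near background in the unconventional clone even without the drug, at 4.47 and 5.34, and their differences were 3.38 and 3.83. Ubash3b rose by 3.18 in the conventional clone and changed by -0.14 in the other (difference -3.32, SE 0.20, adjusted p = 4.8e-10), and Pfpl likewise (difference -5.38). Among division genes the difference was called above 0, that is less negative in the unconventional clone, for 29 of 41 replication and 37 of 56 mitosis genes, beside 8.51% of all genes, and it was called below 0 for 16 of 21 sterol genes, beside 7.78%, with a list median of -0.09 in the unconventional clone. Il7r, Gata3 and Pdcd1 rose in the conventional clone by 0.74, 0.94 and 0.88 and changed by -0.68, -0.47 and -0.58 in the other, each with a called difference.

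**Figure D5:**
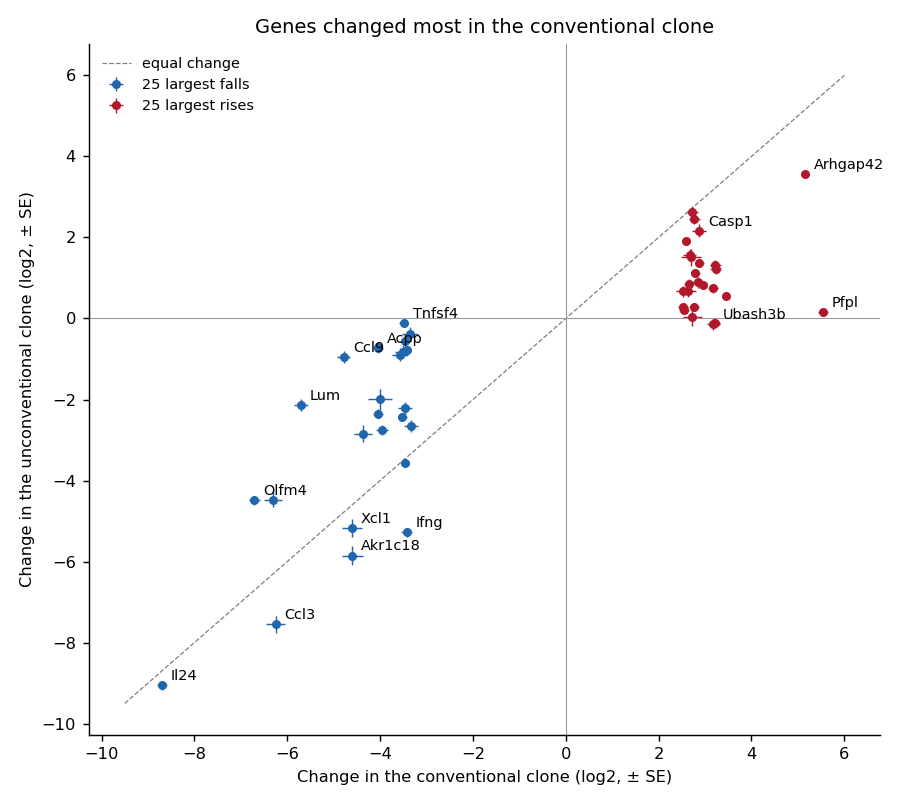
Change with cyclosporine A in the unconventional clone (y axis) against that in the conventional clone (x axis), both log2 with SE bars, for the 25 largest falls (blue) and 25 largest rises (red) of the conventional clone, with a dashed line of equal change. Il24 lies near the line, Ccl3 and Ifng lie below it, and Tnfsf4, Ccl9 and Pfpl lie near 0 in the unconventional clone.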

How the data were processed

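Affymetrix whole-transcript arrays, 1 per sample, measured RNA of 2 activated mouse CD8 clones in 16 samples, 4 in each of 4 groups. The authors deposited 1 normalized value per probe set for 28853 probe sets, and the submitters' processing notes name GCOS, Partek 6.2 and RMA. The deposited values run from 2.08 to 14.55 with array medians of 5.16 to 5.35, and from this range they were taken as log2 values. RMA forces a common distribution on the arrays, so a change is relative to the other genes and a shift of all RNA would not be seen. Scanner files were not used here, and the number of arrays limits the precision.

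Probe sets with 1 gene symbol in the platform annotation (21789, against 1621 with several and 5443 with none) were reduced to the brightest per gene. Using limma 3.58.1 under R 4.3.3 (lmFit, eBayes), 1 mean was estimated for each group over the 16 arrays, with 12 residual degrees of freedom and no covariate, and p-values were adjusted by Benjamini-Hochberg over 19938 genes. The fit was tested on simulated data. Named genes are the 25 largest called rises and 25 largest called falls with groups that do not overlap (receptor segments and gene models without a descriptive name left out), up to 6 members of each of 51 gene lists with the largest absolute change, the 6 largest differences between clones each way, neighbours of the 10 largest rises and falls, and a set of standard pathway and effector genes such as Ppia, Il2 and Prf1. Other list members named in the text were chosen after their values were seen. Members and lists were chosen with earlier results of these data known. Alternatives were other normalizations, filters, weights, a replicate block, and leaving out each replicate in turn. Promoter letters come from RefSeq (GRCm38.p6).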

Additional observations from a re-analysis of the deposited data

Results flagged for a closer look

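An array stood apart from the other 3 of its group in 28 of 668 gene and group sets checked, by its gap to the nearest array as a share of the group's range, and chance marks about 1 in 20. Without the drug these gaps were 0.877 for Ccna2, 0.851 for Cd40lg, 0.941 for Dhrs9, 0.854 for Dusp2, 0.902 for Ebf1, 0.832 for Gadd45b, 0.830 for Il17a, 0.831 for Il33, 0.862 for Inhba, 0.843 for Krt23, 0.865 for Socs1 and 0.857 for Ubash3b. With the drug they were 0.833 for Anxa1, 0.834 for Casp1, 0.970 for Cd3g, 0.881 for Cd40lg, 0.863 for Crtam, 0.896 for Csn1s1, 0.857 for Dusp2, 0.835 for Grap2, 0.945 for Il10, 0.905 for Il17f, 0.867 for Il1a, 0.896 for Itgb3, 0.858 for Osm, 0.896 for Prkacb, 0.894 for Slc36a1 and 0.899 for Trib3. For Il10, 1 treated array was at 7.40 and the others were at 6.37 to 6.43.

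The effect of the drug differed between the clones for 3247 genes by the test of the difference. Differences below 0, where the unconventional clone changed less upward or more downward, were largest for Pfpl at -5.38, Tm4sf1 at -4.16, Hsd11b1 at -3.34, Ubash3b at -3.32, Il17a at -3.32 and Krt23 at -3.07. Tm4sf1, Il17a and Krt23 were near background in the conventional clone with and without the drug. These genes fell in the unconventional clone from 10.47 to 6.33, from 8.46 to 4.99 and from 8.21 to 4.75. Pfpl, Hsd11b1 and Ubash3b were near background in the unconventional clone with and without the drug. Differences above 0 were largest for Ccl9 at 3.83, Lum at 3.58, Tnfsf4 at 3.38, Ambn at 3.34, Acpp at 3.31 and Mest at 3.26. Ccl9, Tnfsf4 and Ambn were near background in the unconventional clone even without the drug, at 5.34, 4.47 and 4.57. Mest, an imprinted gene, was near background in the conventional clone, at 4.10 and 4.17, and rose from 6.88 to 10.21 in the other.

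Among 7064 probe sets without exactly 1 gene symbol, 1168 were called and 172 changed at least 2-fold, 110 higher and 62 lower.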

How the results depend on the processing

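Counts of genes higher, lower and past 2-fold, and the list counts given for chemokines, receptor signalling, replication, mitosis and sterol synthesis, stayed within 1.5 times of the reported count under every alternative run. The only larger move was the number of genes whose change differed between the clones, which was 2155 at an adjusted p under 0.01 in place of 3247 at 0.05. Leaving out each replicate in turn gave 2965 to 3169 genes higher and 2889 to 3122 lower, 438 to 516 higher and 525 to 552 lower at 2-fold, and 3012 to 3185 differing between clones. Over all genes, replicate numbers did not clearly pair the samples. The deviations of same-numbered conventional arrays correlated at -0.132, -0.008, 0.284 and 0.087, and the best partner had the same number for 2 of 4. Some genes, among them Ctla4, Bnip3, Ankrd37 and Car9, kept the same replicate order in both groups. Bnip3 read 11.80, 10.97, 11.27 and 11.98 without the drug and 10.87, 9.40, 9.88 and 11.21 with it. For such genes same-numbered arrays may be paired, which the main fit ignores. With the replicate number as a block, 3183 genes were higher, 3075 lower and 3229 differed between clones. Ankrd37, not called in the main fit, was called with the block. Of 5632 alternative values for 334 named genes, 5548 kept direction and call, 48 lost the call, 36 gained it and 0 reversed, in 23 genes. Losses included Bcl2, Col1a2, Epor and Il17f, and Prf1 was called at 0.21 under cyclic loess. Other scalings moved the median of all genes by at most 0.023. Dim genes limit the data: 4.27% of genes with levels up to 4.14 were called.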
